A study of Mus musculus with 6 samples.

Results

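ATP-dependent chromatin remodelers are motor enzymes that use the energy of ATP to slide, evict, space or edit nucleosomes. Many of them work inside a complex whose other subunits read histone marks or bind DNA. The main families are BAF (SWI/SNF), which opens chromatin at enhancers and promoters, ISWI, which spaces nucleosomes, CHD, which includes the motors of the repressive NuRD complex, and INO80/SRCAP, which exchanges histone H2A.Z. In fibroblasts that are driven towards pluripotency, remodelers are known both as helpers and as barriers of the change of cell state. The genes described here were taken by symbol from the table of counts (the Smarc, Arid, Chd, Ino80, Dpf and Actl6 families with Brd7, Brd9, Pbrm1, Bptf, Srcap, Ep400, Atrx and Hells) with a minimum of 10 counts in at least 3 of the 6 libraries. Of 16982 rows in the table, 49 matched by symbol and 47 met the minimum, and these 47 had 10 or more counts in all 6 libraries. They stand for 46 symbols, because Chd1 has 2 rows of one gene identifier, here Chd1-2 (7934 bases) and Chd1-3 (3196 bases). Arid3c and Dpf3 had at most 5 counts in any library and were left out. Dpf2 and Actl6b were not analysed here. Of the 47 rows, 21 encode ATPases and 26 encode other subunits or relatives, and the symbol rule also took 6 ARID genes (Arid3a, Arid3b, Arid4a, Arid4b, Arid5a and Arid5b) whose products bind DNA but belong to no remodeling complex named here.

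The libraries are RNA-seq of C57BL/6 mouse embryonic fibroblasts (MEF) on day 3 after retroviral delivery of the factors C-MYC, KLF4, OCT4 and SOX2 (OSKM) to start reprogramming, from 3 wild-type cultures (WT1 to WT3) and 3 Rnf20 knockout cultures (KO1 to KO3). RNF20 is the E3 ligase that places monoubiquitin on histone H2B, a mark of transcribed genes that loosens chromatin, and the comparison asks which transcripts differ once it is lost. The knockout came from Rnf20 Flox/Flox cells with a ubiquitously expressed tamoxifen-inducible Cre and 4-OH tamoxifen, whereas the labels give every culture as untreated, so whether the WT cells carried the flox alleles or the Cre or received the drug is not given in the sources used here. The labels do not say whether the 3 libraries of a genotype came from separate embryos. P-values measure only the spread between these libraries, which within WT may be technical, whereas the KO libraries differed in Y-linked transcripts (below).

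The knocked-out gene followed the labels. Rnf20 (chr4:49632006-49656887, plus strand, GRCm38) had 107, 107 and 106 CPM in WT and 18.7, 18.5 and 16.4 CPM in KO, where CPM are counts scaled to library size with TMM factors. Its log2 fold change, KO minus WT throughout, was -2.57 (SE 0.0812, edgeR adjusted p = 0.000163). Here and below, an adjusted p is that of the quasi-likelihood test of edgeR, corrected by the method of Benjamini and Hochberg over 13386 genes, and a gene is called lower or higher where it is under 0.05. The deletion removes only a part of Rnf20, and counts cover the whole gene. Rnf40, its partner in the ligase, had overlapping libraries (87.9 to 99.4 CPM in WT, 82.5 to 99.0 CPM in KO). Fibroblast markers were abundant in all 6 libraries, 10 of 10 markers summing to 30335 to 33097 CPM in WT and to 31976, 39856 and 21634 CPM in KO1 to KO3. Collagens, Fn1 and Vim carried this sum. Of the 10, Thy1 (157 to 192 CPM in WT, 78.4 to 88.8 CPM in KO, adjusted p = 0.00251) and Pdgfra (181 to 222 CPM in WT, 49.9 to 108 CPM in KO, adjusted p = 0.0185) fell. Lum, with 134 to 162 CPM in WT and 21.3 to 102 CPM in KO, lay below WT in every KO library and did not pass the test (adjusted p = 0.119). KO3 stood apart from the other knockout libraries. The chi-square per gene was 92.4 and 101 between KO3 and the other KO libraries, against 8.57 between KO1 and KO2 and 6.04 to 8.92 within WT. In KO3 the sum of 7 macrophage markers was 97.6 CPM (21.8 to 37.5 CPM in the other 5 libraries) and that of 6 epithelial markers 3.43 CPM (41.5 to 43.2 CPM in WT, 33.4 and 23.6 CPM in KO1 and KO2). Markers of endothelium (5 genes, 48.3 to 59.0 CPM in WT and 32.3 to 66.9 CPM in KO, nearly all from Tek) and of neurons (4 genes, 33.6 to 36.1 CPM in WT and 13.3 to 25.4 CPM in KO, nearly all from Map2) held no other abundant gene, Kdr and Syp being the next at up to 1.77 and 0.949 CPM. The sum of 4 Y-linked genes was 0 CPM in KO1 and 0.0476 CPM in KO3 and 227 to 266 CPM in the other 4 libraries. The part of these differences in the results below was not tested beyond the values given without KO3. In bulk RNA, fewer cells of a type and less RNA per cell cannot be told apart.

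The log2 fold changes of remodeler genes had a negative sign in 34 of 47 and were mostly small, and most did not pass the test. At an adjusted p under 0.05, 11 of the 47 fell (23.4%, against 16.6% of all genes tested) and 1 rose (2.13%, against 16.4%), and 35 did not pass the test. The 11 were Smarca1, Dpf1, Hells, Chd7, Smarcd2, Smarcd3, Actl6a, Smarcal1, Chd3, Smarcb1 and Ino80e, with log2 fold changes from -1.21 to -0.32, and the 1 that rose was Chd5. The sign was positive in 13 genes, and the median log2 fold change was -0.20, whereas that of all genes tested was -0.00032. In 28 genes (59.6%) the 3 KO libraries lay below all 3 WT libraries, which held for 28.2% of all genes, and in 2 genes (4.26%) they lay above, which held for 26.6%. ATPases and other members were alike in these counts, with 5 of 21 ATPase rows and 6 of 26 other rows called lower and a median of -0.20 in both. In the edgeR fit made here, 0 of the 47 passed the stricter rule of the study's methods, which 3.59% of all genes met. That rule asks for a doubling or halving at least, an adjusted p under 0.01 and a genotype whose mean FPKM exceeds 1. The study's own comparison was not used, and its calls may differ. In edgeR 0 members had an adjusted p under 0.01, which 4.89% of all genes had as lower and 4.98% as higher. At an unadjusted p under 0.05, 20 members were lower and 2 higher (42.6% and 4.26%, against 23% and 22.5% of all genes). DESeq2 called 14 members lower and 1 higher (29.8% and 2.13%, against 18.6% and 19.5% of all genes). Its adjusted p was under 0.01 in 8 lower members and 1 higher member (13.1% and 13.8% of all genes), and 2 of these, Dpf1 and Smarca1, passed the stricter rule, which 7.34% of all genes met.

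**Figure D1:**
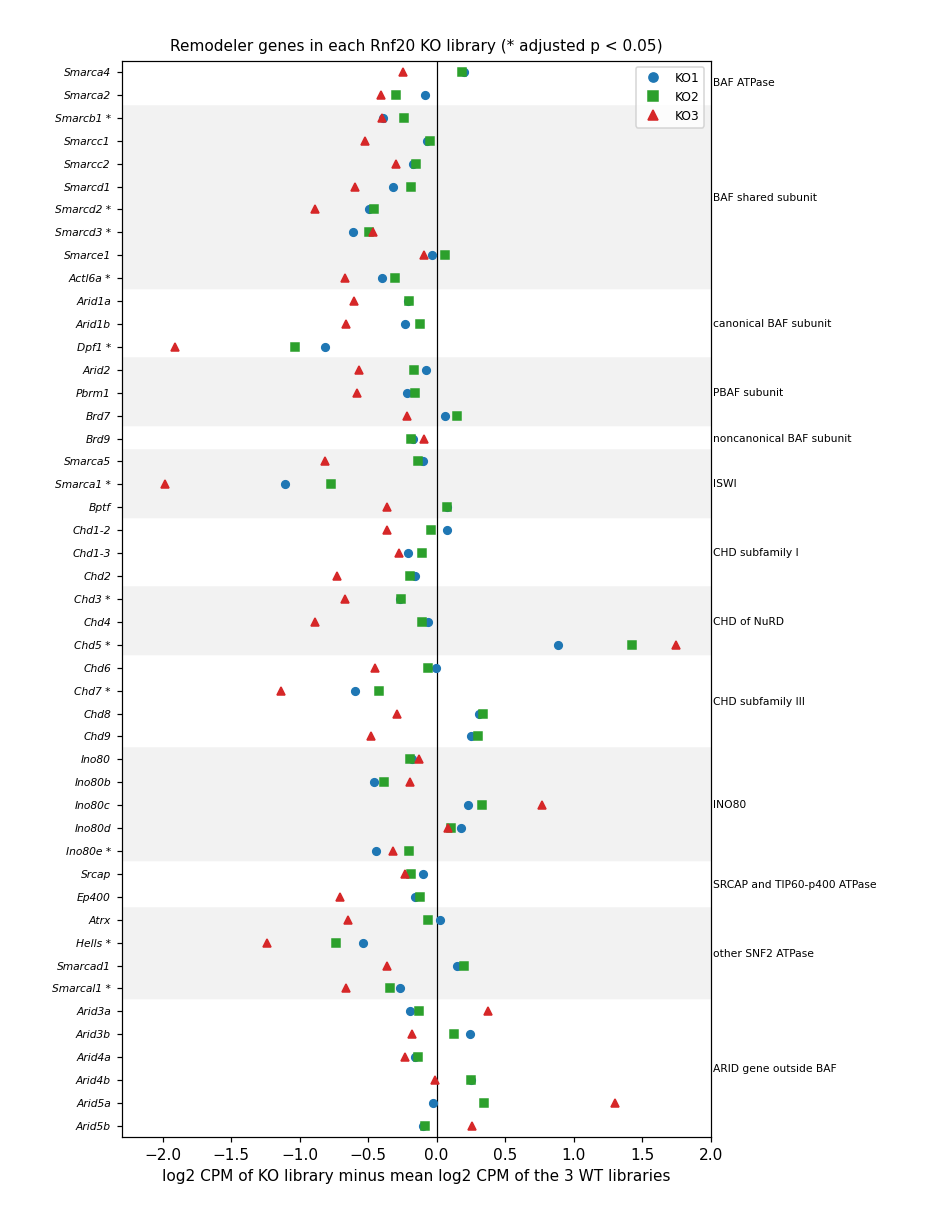
Each row is a remodeler gene grouped by role, and the points give, for KO1 (circle), KO2 (square) and KO3 (triangle), the log2 CPM minus the mean log2 CPM of the 3 WT libraries, with an asterisk for an adjusted p under 0.05. Most points lie left of 0, and the KO3 triangle is the leftmost of the KO points in 37 of 47 genes.

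KO3 was lower than KO1 and KO2 in most members. The median difference from the WT mean over the 47 genes was -0.16 in KO1, -0.14 in KO2 and -0.40 in KO3 on the log2 scale, while the same median over all genes was -0.0030, -0.0043 and -0.016. KO3 was the lowest KO library in 37 of 47 genes. In 10 genes KO3 lay on the other side of the WT mean than KO1 and KO2, namely Smarca4, Brd7, Bptf, Chd8, Chd9, Smarcad1, Arid3a, Arid3b, Arid4b and Arid5b. Without KO3, 19 members were lower (40.4%, against 24.2% of all genes) and 5 were higher (10.6%, against 23.9%), with a median of -0.15. KO1 and KO2 both lay below all WT libraries in 29 members (61.7%, against 33.7% of all genes). They both lay above in 10 members (21.3%, against 33.4%), more than the 2 with all 3 KO libraries. All 12 genes called with 6 libraries were also called without KO3, in the same direction. The calls were nearly all lost when a WT library was left out, and the cause of this was not tested. Without WT1, WT2 or WT3 there were 1, 1 and 0 members lower and 0 higher, while 7.31%, 6.13% and 5.17% of all genes were lower and 7.01%, 5.75% and 5.11% higher. The share of lower calls among members, at most 2.13%, was thus below that of all genes in each of these fits, in contrast to the fit with 6 libraries. At an unadjusted p under 0.05 there were 12, 14 and 12 members lower (25.5%, 29.8% and 25.5%, against 18.3%, 17.9% and 17.5% of all genes) and 2, 1 and 1 higher (18.2%, 17.5% and 17.3% of all genes), and the median stayed between -0.23 and -0.19. The adjusted p of the calls lost in this way lay between 0.0514 and 0.138. Without KO1 there were 8 lower and 1 higher (13.4% and 14.2% of all genes), and without KO2 there were 9 lower and 0 higher (11.6% and 12.4% of all genes), with 2 higher at an unadjusted p under 0.05.

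Gene length differed between these genes and the rest, with a median of 6193 bases against 3468 bases for all genes tested, and length moved with KO3. Over all genes, the median log2 difference of KO3 from WT went from 0.13 in genes under 1000 bases to -0.25 in genes of 8000 bases or more, whereas that of KO1 went from -0.12 to 0.066 and that of KO2 from -0.14 to 0.052. The 17 members of 8000 bases or more had a median difference of -0.57 in KO3, -0.075 in KO1 and -0.12 in KO2. With the trend on length removed within each library, 16 members were lower (16.7% of all genes were) and 2 higher (19.3% of all genes), with a median of -0.16. The median of all genes in this fit was 0.033. Members less all genes came to -0.195, against -0.202 without the correction. The 12 genes called before were again called. Arid1a, Pbrm1, Chd2, Ino80b and Ep400 joined the lower genes and Arid4b the higher ones.

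**Figure D2:**
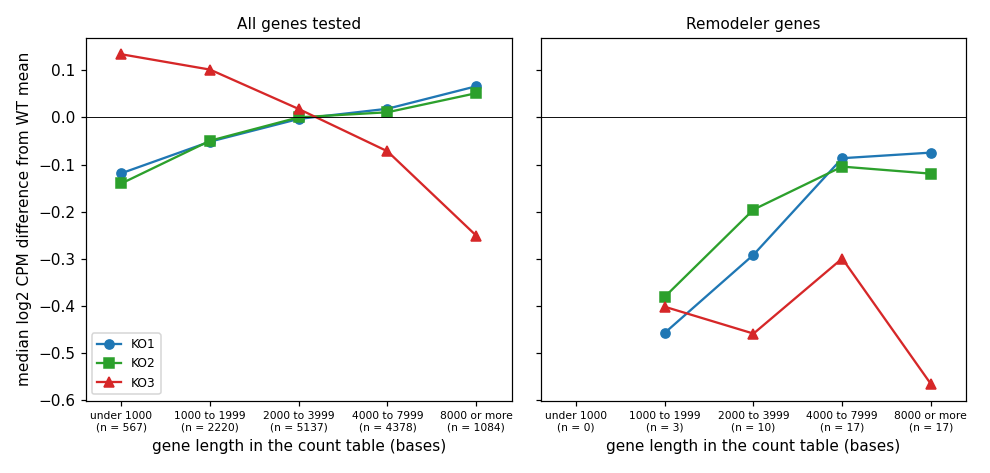
Median log2 CPM difference from the WT mean (vertical axis) in 5 classes of gene length in bases (horizontal axis) for KO1, KO2 and KO3, for all genes tested (left) and for the remodeler genes (right), with the number of genes under each class. In the left panel KO3 falls with length from 0.13 to -0.25 while KO1 and KO2 rise, and in the right panel, where no gene is under 1000 bases, every median lies below 0.

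The BAF complex is built on SMARCA4 (BRG1) or SMARCA2 (BRM), which are exclusive motors, around a core of shared subunits. Of its 17 members 5 were lower and 0 higher (29.4% lower, against 16.6% of all genes). At an unadjusted p under 0.05 in edgeR 10 were lower and 0 higher (23% of all genes were lower). DESeq2 called 7 lower and 0 higher (18.6% of all genes were lower). In 13 (76.5%) the KO libraries lay below WT, against 28.2% of all genes, and 15 had a negative sign. Neither motor passed the test. Smarca4 had 289, 280 and 298 CPM in WT and 331, 329 and 243 CPM in KO1 to KO3, so that KO1 and KO2 lay above WT and KO3 below. Its log2 fold change was 0.06 (SE 0.126, adjusted p = 0.741) with 6 libraries and 0.19 (adjusted p = 0.0103) without KO3. Smarca2 had 131, 134 and 131 CPM in WT and 124, 108 and 99.4 CPM in KO, below WT in every KO library, with a log2 fold change of -0.26 (SE 0.0937, adjusted p = 0.0753) and, without KO3, of -0.19 (adjusted p = 0.0435).

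The SMARCD subunits, also known as BAF60a, b and c, link the complex to transcription factors, and a complex is thought to carry a choice among the 3 paralogs. Smarcd2 had 102, 103 and 108 CPM in WT and 73.7, 75.7 and 56.2 CPM in KO. The groups were far apart and the KO mean was 65.8% of WT, with a log2 fold change of -0.60 (SE 0.122, adjusted p = 0.0136). Smarcd3, the form of heart and muscle, had 17.2, 15.0 and 15.9 CPM in WT and 10.5, 11.3 and 11.6 CPM in KO. KO3 was here the highest of the KO libraries, and the log2 fold change was -0.53 (SE 0.105, adjusted p = 0.0130) and -0.55 without KO3. Smarcd1 had 44.9, 37.6 and 39.1 CPM in WT and 32.4, 35.5 and 26.7 CPM in KO. The libraries did not overlap, yet the log2 fold change of -0.36 missed the threshold (SE 0.129, adjusted p = 0.0701). The 3 paralogs lie on chromosomes 15 (Smarcd1, 99702129 to 99713991, plus strand), 11 (Smarcd2, 106263179 to 106272972, minus strand) and 5 (Smarcd3, 24590818 to 24624411, minus strand) of GRCm38.

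Of the other shared subunits, Actl6a and Smarcb1 fell. Actl6a encodes BAF53a, the actin-like subunit of dividing cells, which also serves in INO80 and TIP60 complexes. It had 43.5, 41.2 and 46.2 CPM in WT and 32.9, 35.3 and 27.3 CPM in KO, all KO libraries below WT, with a log2 fold change of -0.45 (SE 0.112, adjusted p = 0.0250). Smarcb1 (SNF5), a core subunit and tumour suppressor, had 73.1, 72.6 and 78.0 CPM in WT and 56.7, 63.2 and 56.4 CPM in KO, with a log2 fold change of -0.34 (SE 0.0776, adjusted p = 0.0186). KO3 and KO1 were alike for this gene. The scaffold subunits Smarcc1 (-0.20, adjusted p = 0.277) and Smarcc2 (-0.21, adjusted p = 0.0613) and the HMG-box subunit Smarce1 (-0.02, adjusted p = 0.837) did not pass the test. Smarce1 had 135 to 145 CPM in WT and 133 to 147 CPM in KO, and its sign turned without KO3.

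Among subunits that define a form of the complex, Dpf1 changed most. Dpf1 (BAF45b), a PHD-finger subunit best known from neurons, had 16.8, 14.7 and 16.5 CPM in WT and 9.02, 7.74 and 4.19 CPM in KO. Every KO library lay well below WT, the KO mean was 43.6% of WT and the log2 fold change was -1.20 (SE 0.267, adjusted p = 0.0179). It was -0.93 without KO3 and between -1.42 and -0.93 whichever library was left out. Arid1a and Arid1b, the exclusive ARID subunits of canonical BAF that bind DNA, had log2 fold changes of -0.33 (adjusted p = 0.0719) and -0.32 (adjusted p = 0.131), with KO below WT in both. The PBAF subunits Arid2 (-0.25), Pbrm1 (-0.31) and Brd7 (0.01) and the noncanonical subunit Brd9 (-0.15), of which Pbrm1, Brd7 and Brd9 carry bromodomains that bind acetylated histones, had adjusted p values from 0.0852 for Pbrm1 to 0.960 for Brd7. The sign of Brd7 turned with several settings and no direction is given for it.

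Of the 3 ISWI members, only Smarca1 passed the test. Smarca1 (SNF2L; chromosome X, 47809368 to 47892974, minus strand, GRCm38) encodes the ISWI motor of the NURF complex that is less abundant in most dividing cells. It had 17.0, 15.9 and 16.1 CPM in WT and 7.54, 9.50 and 4.05 CPM in KO1 to KO3. The WT libraries were tight and all KO libraries were far below them, at a mean of 43.1% of WT. The log2 fold change was -1.21 (SE 0.283, adjusted p = 0.0206) and -0.94 (adjusted p = 0.000192) without KO3. The gene is X-linked. KO2, with Y-linked transcripts at the level of WT, was the highest KO library at 9.50 CPM, and KO1 and KO3, nearly without them, had 7.54 and 4.05 CPM. The part of the sex chromosomes in this result was not tested. Smarca5 (SNF2H), the ISWI motor of most complexes of the family, had 212, 241 and 207 CPM in WT and 206, 200 and 125 CPM in KO. KO1 and KO2 lay just under the lowest WT library and KO3 far below, with a log2 fold change of -0.32 (SE 0.191, adjusted p = 0.235). Bptf, the large NURF subunit that reads H3K4 methylation, had a log2 fold change of -0.06 (adjusted p = 0.754), which was 0.08 without KO3.

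The CHD family has a pair of chromodomains beside the motor. Of 10 rows, 2 were lower and 1 higher (20% and 10%, against 16.6% and 16.4% of all genes), so the lower share was near that of all genes. In 5 (50%) the KO libraries lay below WT, against 28.2% of all genes, and in 1 (10%) above, against 26.6%. Chd3 and Chd4, the motors of NuRD, were the most abundant members per gene length, at 67.7 ± 6.76 and 110 ± 1.80 FPKM in WT (SD, n = 3), where FPKM are fragments scaled by gene length and library depth. Chd3 (chromosome 11, 69343273 to 69369406, minus strand) had 500, 473 and 501 CPM in WT and 408, 410 and 309 CPM in KO. All KO libraries lay below WT, with a log2 fold change of -0.39 (SE 0.120, adjusted p = 0.0471), the call nearest to the threshold. Chd4 had 826, 855 and 832 CPM in WT and 800, 779 and 452 CPM in KO. Only KO3 was far below WT, and the log2 fold change of -0.31 (SE 0.209, adjusted p = 0.289) was -0.08 without KO3. Chd5 (chromosome 4, 152338651 to 152390194, plus strand), the NuRD motor of brain and testis, had 0.856, 1.61 and 1.23 CPM in WT and 2.29, 3.37 and 4.24 CPM in KO, from 18 to 34 counts in WT and 48 to 89 in KO. The groups did not overlap, and the log2 fold change was 1.41 (SE 0.350, adjusted p = 0.0246), or 1.20 without KO3. It was the least abundant member by far, at 0.0835, 0.146 and 0.120 FPKM in WT and 0.214, 0.303 and 0.413 FPKM in KO.

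Chd7, whose human counterpart is mutated in CHARGE syndrome and which acts at enhancers, was the other CHD gene called. It had 29.4, 41.2 and 34.3 CPM in WT and 22.9, 25.8 and 15.7 CPM in KO, with a wide spread in WT and all KO libraries below it. The log2 fold change was -0.70 (SE 0.208, adjusted p = 0.0413), and it was -0.52 (adjusted p = 0.00819) without KO3 and -0.57 (adjusted p = 0.136) without WT2. Its relatives of the same subfamily were split by KO3. Chd8, a binder of beta-catenin, had 180, 180 and 180 CPM in WT and 224, 228 and 147 CPM in KO. KO1 and KO2 lay above the narrow WT range and KO3 below, so that the log2 fold change was 0.15 (adjusted p = 0.509) with 6 libraries and 0.33 (adjusted p = 0.000381) without KO3. Chd9 had the same pattern, with a log2 fold change of 0.06 (adjusted p = 0.839), which was 0.27 (adjusted p = 0.0162) without KO3. Chd6 (-0.16, adjusted p = 0.336) overlapped between groups. Chd1, which follows RNA polymerase II and binds H3K4 trimethylation, had log2 fold changes of -0.10 (Chd1-2, adjusted p = 0.547) and -0.20 (Chd1-3, adjusted p = 0.107), and Chd2, its paralog, of -0.34 (adjusted p = 0.141), with KO below WT in Chd1-3 and Chd2.

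Of the 7 members of the INO80 and SRCAP families, which handle H2A.Z, 1 was lower and 0 higher. The lower share of 14.3% was near that of all genes (16.6%). In 5 (71.4%) the KO libraries lay below WT, against 28.2% of all genes, and in 1 (14.3%) above, against 26.6%. At an unadjusted p under 0.05 in edgeR 4 were lower and 1 higher (23% and 22.5% of all genes). DESeq2 called 2 lower and 0 higher (18.6% and 19.5% of all genes). Ino80e, a metazoan subunit of INO80, had 52.3, 47.3 and 53.8 CPM in WT and 37.6, 44.3 and 40.9 CPM in KO, with a log2 fold change of -0.32 (SE 0.0920, adjusted p = 0.0378). KO3 lay between the other KO libraries. Ino80b, another subunit, had a log2 fold change of -0.34 that lay just outside the threshold (adjusted p = 0.0510) and was -0.42 (adjusted p = 0.00537) without KO3. Ino80c had 14.0, 11.6 and 13.3 CPM in WT and 15.2, 16.3 and 22.1 CPM in KO, all KO libraries above WT, with a log2 fold change of 0.46 (SE 0.166, adjusted p = 0.0731). The motors Ino80 (-0.17, adjusted p = 0.0904), Srcap (-0.17, adjusted p = 0.0987) and Ep400 (-0.30, adjusted p = 0.168) all had KO below WT and did not pass the test. Ino80d was at 0.11 (adjusted p = 0.416) with overlapping libraries.

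Among the other SNF2-type ATPases, Hells and Smarcal1 fell. Hells (LSH; chromosome 19, 38930915 to 38971051, plus strand, GRCm38), a remodeler that DNA methylation of repeats depends on, had 66.8, 78.8 and 68.5 CPM in WT and 49.1, 42.7 and 30.1 CPM in KO1 to KO3. All KO libraries were below WT at a mean of 56.9%, and the log2 fold change was -0.81 (SE 0.179, adjusted p = 0.0172), -0.64 without KO3 and between -0.97 and -0.64 whichever library was left out. Genes of S phase moved with it. Of 41 S-phase genes tested, a list without Hells, 39 were lower and all 41 had a negative sign (16.6% of all genes were lower), with a median of -1.31, and they summed to 2036 to 2127 CPM in WT and 1142, 1023 and 602 CPM in KO1 to KO3. How far the fall of Hells went with that of this list was not tested. Smarcal1, an annealing helicase that rewinds DNA at stalled replication forks, had 30.1, 30.8 and 31.1 CPM in WT and 25.5, 24.2 and 19.3 CPM in KO. The WT libraries were nearly equal, and the log2 fold change was -0.41 (SE 0.117, adjusted p = 0.0363). Smarcad1 (0.01, adjusted p = 0.948), which acts at replication forks and breaks, and the X-linked Atrx (-0.20, adjusted p = 0.391), which deposits histone H3.3 with DAXX, overlapped between the groups. Atrx was 307, 288 and 193 CPM in KO1 to KO3 against 282 to 316 CPM in WT, so that only KO3 lay outside the WT range.

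Because E2F factors drive S-phase genes, the 250 bases before each RefSeq start were searched for E2F letters (TTTCCCGC, TTTCGCGC, TTTGCCGC and TTTGGCGC on either strand). A match stood in 4 of 44 starts of members (9.09%) and in 611 of 32851 starts in all (1.86%). Members and all starts were not matched for base content or expression, and a gene can have several starts. The 4 member starts with a match held 64% to 81.6% G or C, and the part of base content in these shares was not tested. The 44 starts of members cover 36 of the 46 symbols, among them 10 called genes, of which only Hells had a match. The other 3 genes with a match, Arid1a, Brd7 and Smarcd1, did not pass the test. The matches are shown in 30 bases each, with the E2F letters in capitals, from RefSeq on GRCm38.p6, 5′ to 3′ on the strand of the gene.
Hells, chr19:38930917-38930946, plus strand: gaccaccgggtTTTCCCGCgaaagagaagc
Smarcd1, chr15:99702145-99702174, plus strand: gtcagcacgccTTTCCCGCtagtcgccccc
Brd7, chr8:88362182-88362211, minus strand: ggcggcctctcTTTCCCGCtggtttgccgg
Arid1a, chr4:133754022-133754051, minus strand: tccctccctccTTTCCCGCcccctccccct
The first capital lay 62 bases before the start of Hells, 131 before that of Smarcd1, 28 before that of Brd7 and 55 before that of Arid1a. By GENCODE the matches of Hells and Smarcd1 lay in an exon of the gene and that of Arid1a in an intron, whereas that of Brd7 lay across the gene's start, with 2 of its 8 bases in the exon. The CCAAT box (CCAAT on either strand) stood in 27.3% of member starts and 33.8% of all starts, and the SOX letters CATTGT in 4.55% and 10.7%. No start with an E2F match had either of the other motifs in the same window. A match describes the letters only.

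The 6 ARID genes outside BAF had 0 calls, where 16.6% of all genes were lower and 16.4% higher. They also had 0 at an unadjusted p under 0.05 in edgeR and 0 in DESeq2, with 5 positive signs and a median of 0.05. Arid5a, which encodes a protein that stabilises inflammatory mRNA, had 7.18, 6.36 and 9.06 CPM in WT and 7.30, 9.50 and 18.5 CPM in KO. KO3 alone was high, and the log2 fold change of 0.64 (SE 0.352, adjusted p = 0.198) was 0.16 without KO3. The sum of macrophage markers was also highest in KO3, and a link between the 2 was not tested. Without these 6 genes, 11 of 41 members were lower and 1 higher (26.8% and 2.44%), with a median of -0.26.

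**Figure D3:**
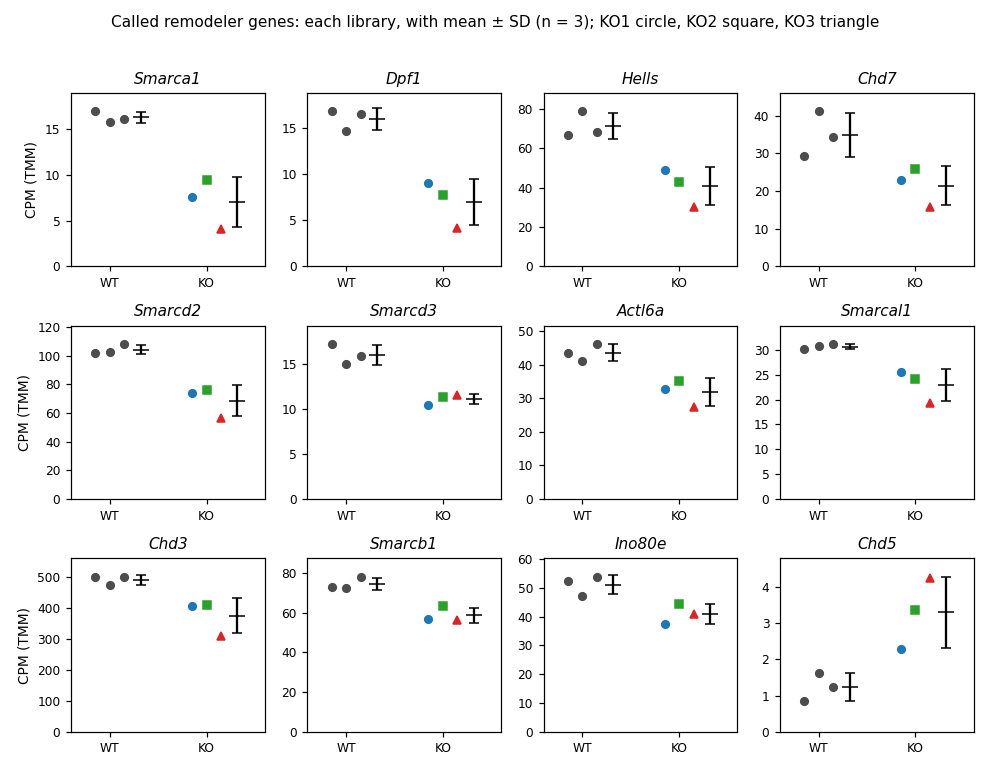
CPM after TMM scaling (vertical axis from 0) of the 12 called remodeler genes in each of 3 WT (grey) and 3 KO libraries (KO1 circle, KO2 square, KO3 triangle), with the mean and SD of each genotype beside the points. In 11 panels every KO point lies below every WT point, and in the panel of Chd5 the KO points, 2.29 to 4.24 CPM, lie above those of WT.

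Per gene length, the members ranged from 0.116 FPKM (Chd5) to 110 FPKM (Chd4) in WT, with a median of 15.8 FPKM. The called genes were spread over this range. Chd3 was at 67.7 ± 6.76 FPKM in WT and 45.2 ± 8.43 in KO, Smarcb1 at 43.5 ± 2.83 and 33.7 ± 1.62, Smarcd2 at 41.0 ± 1.08 and 26.6 ± 3.78 and Ino80e at 31.8 ± 4.24 and 24.7 ± 2.44 FPKM (SD, n = 3 each). Smarca1, at 4.07 ± 0.121 and 1.81 ± 0.880, Chd7, at 2.68 ± 0.444 and 1.66 ± 0.346, and Dpf1, at 7.48 ± 0.843 and 3.22 ± 1.14 FPKM (SD, n = 3), lay below the median of the members in WT.

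Ratios of alternative subunits within a library do not depend on how libraries are scaled. For 8 pairs of paralogs the log2 ratio of FPKM was compared by an exact two-sided permutation test of 3 against 3 libraries, whose smallest possible p is 0.1, so that no pair could pass 0.05. The ratio was higher in all KO libraries in 4 pairs, each with an exact permutation p = 0.1 (0.2 adjusted over the 8 pairs). Smarca5/Smarca1 was 9.59, 11.3 and 9.13 in WT and 20.8, 14.4 and 24.3 in KO, a difference of 0.96 on the log2 scale and of 0.80 without KO3. Smarca4/Smarca2 was 1.34, 1.35 and 1.43 in WT and 1.73, 1.94 and 1.53 in KO, a difference of 0.33 on the log2 scale, which was 0.42 without KO3. So the balance of the motors lay further towards SMARCA5 and SMARCA4 transcripts in each KO library. Smarcd1/Smarcd2 differed by 0.25 and Chd4/Chd3 by 0.30 on the log2 scale. In both, the lowest KO ratio was only just above the highest WT ratio (0.359 against 0.349, and 1.75 against 1.74). From counts divided by gene length Smarcd1/Smarcd2 was again 0.25, with overlapping libraries, whereas Chd4/Chd3 was 0.05, with overlapping libraries. Smarcd1/Smarcd3 (0.13), Smarcc1/Smarcc2 (-0.01), Arid1a/Arid1b (0.01) and Chd1/Chd2 (-0.09) overlapped between the genotypes. In Smarcd1/Smarcd3, KO1 and KO2 lay above WT and KO3 below, and the difference was 0.31 without KO3. Chd1/Chd2, with the longer row of Chd1, turned to 0.25 with counts per length.

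**Figure D4:**
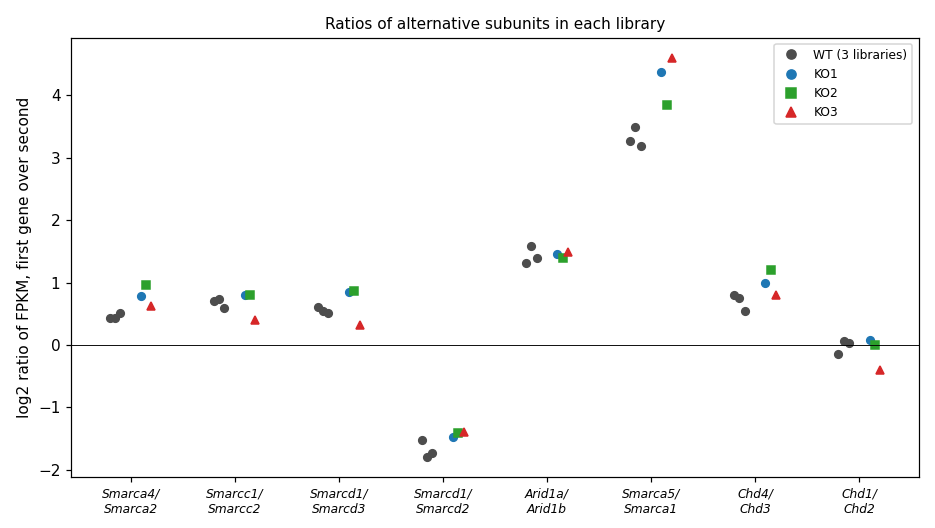
Log2 ratio of FPKM of the first gene over the second (vertical axis) for 8 pairs of alternative subunits, with 3 WT libraries (grey) and KO1 (circle), KO2 (square) and KO3 (triangle). The KO points lie above the WT points in Smarca4/Smarca2, Smarcd1/Smarcd2, Smarca5/Smarca1 and Chd4/Chd3, most in Smarca5/Smarca1, and overlap with them in the other 4 pairs.

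Partner subunits and relatives that the symbol rule does not hold, together called partners here, were taken from lists, of which 64 of 69 genes were tested. They include 10 other SNF2-family genes that are relatives of the motors and not subunits, of which 5 were lower (50%). Of the 64, 22 were lower (34.4%, against 16.6% of all genes) and 1 higher (1.56%, against 16.4%), with a median of -0.25. At an unadjusted p under 0.05 edgeR gave 31 lower and 2 higher, and DESeq2 called 24 lower and 2 higher (the shares of all genes are those given for the members). In 38 of them (59.4%) the KO libraries lay below WT (28.2% of all genes). Without KO3, 30 were lower and 5 higher (24.2% and 23.9% of all genes). Without WT1, WT2 or WT3 there were 6, 6 and 6 lower and 0 higher. These 6 were 9.23% to 9.38% of the partners tested, against 7.31%, 6.13% and 5.17% of all genes, a smaller excess than with 6 libraries. At an unadjusted p under 0.05 edgeR then gave 23, 27 and 24 lower (35.4%, 42.2% and 37.5%, against 18.3%, 17.9% and 17.5% of all genes) and 1, 1 and 1 higher.

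For BAF, 4 of 10 partners fell and 0 rose (40% lower, against 16.6% of all genes). They were led by Bcl11a (22.7, 26.9 and 24.3 CPM in WT, 14.1, 11.4 and 3.81 CPM in KO, log2 fold change -1.34, adjusted p = 0.0476), Bcl11b (-0.93, adjusted p = 0.0330) and Bcl7a (-0.90, adjusted p = 0.00387). BCL11A and BCL11B are zinc-finger transcription factors that bind BAF, and the value of Bcl11a was -0.95 without KO3. For ISWI, Baz2b (-0.46, adjusted p = 0.0267), a bromodomain partner, and Chrac1 (-0.43, adjusted p = 0.0451), a histone-fold partner, fell of 6 (33.3%, against 16.6% of all genes). For NuRD 3 of 12 fell and 1 rose (25% and 8.33%, against 16.6% and 16.4% of all genes). The former were the MTA scaffolds Mta1 (-0.33, adjusted p = 0.00975), Mta2 (-0.36, adjusted p = 0.0344) and Mta3 (-0.33, adjusted p = 0.0224), the latter Mbd2 (0.37, adjusted p = 0.0383), which binds methylated DNA. Mta1 had 192, 190 and 187 CPM in WT and 151, 147 and 153 CPM in KO, so KO3 stood with the other KO libraries.

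For INO80, SRCAP and TIP60, 6 of 23 partners fell and 0 rose (26.1% lower, against 16.6% of all genes). The falls were led by Actr5 (-0.65, adjusted p = 0.0414), an actin-related subunit of INO80, Mbtd1 (-0.63, adjusted p = 0.00632), a histone reader of TIP60, and Brd8 (-0.51, adjusted p = 0.0207), a bromodomain subunit of TIP60. Mbtd1 had 87.1, 101 and 93.3 CPM in WT and 62.4, 64.6 and 54.9 CPM in KO.

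Other SNF2-family genes included Rad54l and Ercc6l, the largest falls of all 64 partners. Ercc6l (PICH), a translocase on the DNA bridges of anaphase, had 26.4, 26.4 and 24.9 CPM in WT and 10.2, 8.88 and 3.76 CPM in KO (log2 fold change -1.76, adjusted p = 0.0109). Rad54l, a motor of homologous recombination, had 12.6, 12.5 and 13.6 CPM in WT and 5.58, 4.04 and 1.33 CPM in KO (-1.82, adjusted p = 0.0226). Zranb3, an annealing helicase at replication forks like Smarcal1, was at -0.85 (adjusted p = 0.0147). In all, 5 of these 10 genes fell and 0 rose (50% lower, against 16.6% of all genes). Of 3 partners of ATRX and HELLS, Cdca7 (48.0, 55.9 and 54.9 CPM in WT, 20.7, 17.3 and 10.8 CPM in KO, log2 fold change -1.70, adjusted p = 0.00474), which recruits HELLS to nucleosomes and is also on the list of S-phase genes, and its paralog Cdca7l (-0.84, adjusted p = 0.0258) fell, and Daxx (-0.21, adjusted p = 0.157) did not pass the test. Rad54l, Ercc6l and Cdca7 were at -1.42, -1.44 and -1.48 without KO3, and the sums of the S-phase genes in each library are given beside Hells. The part of that list in these values was not tested.

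**Figure D5:**
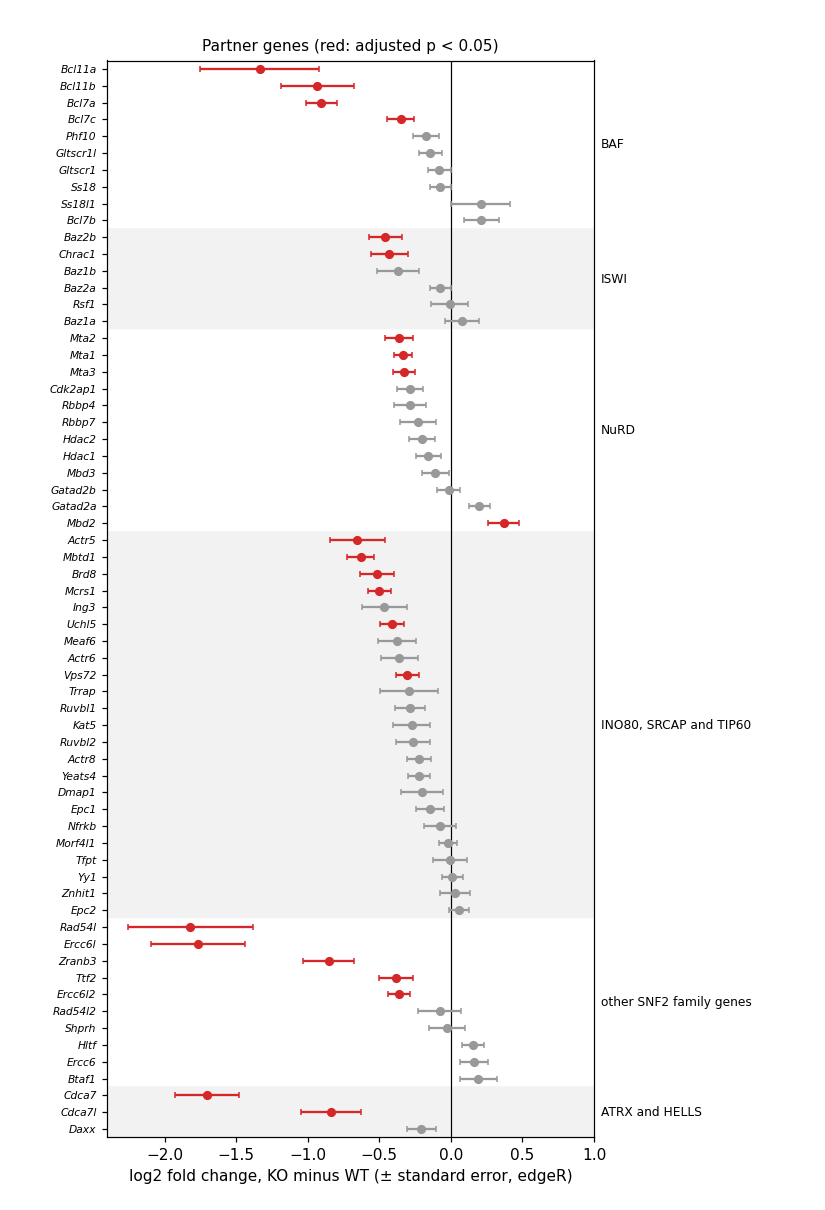
Log2 fold change, KO minus WT, with its standard error (horizontal axis) for 64 partner genes in 6 lists, in red where the adjusted p was under 0.05. In red, 22 points lie left of 0, from Rad54l at -1.82 to Vps72 at -0.31, and 1, Mbd2 at 0.37, lies right of it.

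Exons of another gene overlap those of 22 of the 47 members by GENCODE, on the opposite strand in 17 and on the same strand in 7, and the library kit kept the strand while the strand setting of the counting is not given in the sources used here. Among called genes this touches Smarcd3 (Chpf2 and Mir671), Actl6a (Mrpl47), Dpf1 (Gm44632), Chd5 (Gm13645) and Ino80e (Doc2a and Hirip3), for which reads of the neighbour cannot be told apart if strand was not used.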

How the data were processed

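RNA-seq libraries of 3 WT and 3 KO cultures were prepared by the authors with a stranded poly(A) kit, and paired-end reads were aligned with HISAT2 2.1.0 to GRCm38. Counts per gene were deposited by the authors without normalization, and their counting program and its strand setting are not given in the sources used here. FPKM were computed by the authors with Cufflinks 2.1.1 and deposited for 12633 genes. That table also holds log2 fold changes and FDR of the study's own comparison, which were not used. All columns of per-sample values were mapped to a sample by name (0 unmapped).

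Totals were 20545442 to 21746898 counts per library. Counts were scaled by TMM, filtered by filterByExpr and tested with edgeR 4.0.16 (limma 3.58.1, R 4.3.3) on genotype alone over 13386 genes, with a common dispersion of 0.0353. The threshold for a call was an adjusted p under 0.05. The SE of a log2 fold change was its size over the root of the F statistic. Differences of single libraries used log2 CPM with a prior count of 2. Ratios of paralogs used FPKM and exact permutation. Gene length was corrected by a loess (span 0.5) per library, entered as an offset. Sequences came from RefSeq starts on GRCm38.p6 (250 bases upstream) and gene positions from GENCODE, read with Python 3.11.15 and pandas 2.3.3. Fits were tested on simulated data. Alternatives were other scalings, DESeq2 1.42.0, other filters and thresholds, the replicate number as a block, length correction and leaving out each library. Values in every library are given for called ATPases, the 10 members of largest absolute log2 fold change and paralog pairs with a called gene, and up to 3 called partners in each direction are named per list. Other genes given in full were picked after their values were seen. The members and lists were chosen with earlier results of these data known.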

Additional observations from a re-analysis of the deposited data

How the results depend on the processing

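The median log2 fold change of the 47 remodeler genes stayed between -0.26 and -0.15 under every alternative, and no called member turned its sign. Less the median of all genes in the same fit, it lay between -0.26 (no filter) and -0.14 (without KO3), and was -0.20 with library totals. The count of lower members (11 with all libraries) was 10 to 16 with RLE scaling, DESeq2, either filter or the length correction (12.2% to 18.6% of all genes). It was 19 with library totals, 6 with the replicate block and 0 at an adjusted p under 0.01 or with the study's thresholds. With library totals the lower members were 40.4% against 20.1% of all genes, and with the block 12.8% against 11.1%, near the background. Leaving out each library gave 0 to 19 (5.17% to 24.2% of all genes). The count of higher members (1) was 2 with the length correction, 0 at an adjusted p under 0.01 or with the study's thresholds, and 0 to 5 with a library left out. Of partners, lower counts (22) were 12 with the block (18.8%, against 11.1% of all genes). They were 5 at an adjusted p under 0.01 (4.89% of all genes) and 1 with the study's thresholds. Those thresholds were met by 3.59% of all genes in either direction. With a library left out there were 6 to 30 lower partners (5.17% to 24.2% of all genes). Higher counts (1) were 2 with DESeq2, 3 with the length correction and 0 with library totals, the block, an adjusted p under 0.01 or the study's thresholds, and 0 to 5 with a library left out. Of all genes, 19.5% were higher with DESeq2, 19.3% with the length correction, 13.1% with library totals and 10.3% with the block. At an adjusted p under 0.01, 4.98% of all genes were higher, and with a library left out 5.11% to 23.9%. At an unadjusted p under 0.05, edgeR gave 20 lower and 2 higher members and 31 lower and 2 higher partners, with 1 higher partner under library totals and 1 under the block. DESeq2 called 14 lower and 1 higher member, of which 8 and 1 had an adjusted p under 0.01. The cause of these moves was not tested. With library totals, 60.5% of all calls were lower, against 50.3% with TMM.

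Some values near 0 turned their sign. With library totals the log2 fold change was -0.0278 for Arid3a, -0.0272 for Arid5b, -0.0534 for Brd7, -0.00119 for Smarca4 and -0.0466 for Smarcad1. With no filter it was -0.00218 for Brd7, and with the replicate block -0.000156 for Brd7 and -0.00453 for Smarcad1. The length correction gave 0.00925 for Bptf and 0.0323 for Rnf40. Counts per length gave 0.25 for Chd1/Chd2. With a library left out, log2 fold changes lay between -0.17 and 0.14 for Arid3a, -0.0122 and 0.19 for Arid3b, -0.0929 and 0.10 for Arid5b, -0.12 and 0.0771 for Bptf, -0.0649 and 0.11 for Brd7, -0.19 and 0.0189 for Chd1-2, -0.0710 and 0.27 for Chd9, -0.0103 and 0.19 for Smarca4, -0.0823 and 0.17 for Smarcad1, -0.0602 and 0.0155 for Smarce1, and -0.0681 and 0.0572 for Rnf40. Differences of log2 ratios lay between -0.0789 and 0.12 for Smarcc1/Smarcc2, -0.0472 and 0.0898 for Arid1a/Arid1b, and -0.18 and 0.0544 for Chd1/Chd2.

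Replicate numbers were not found to pair the libraries, since deviations of same-numbered libraries correlated at -0.07, 0.04 and 0.01. With the block, 7 of the 12 called members were kept, the calls of Smarcb1, Actl6a, Chd3, Ino80e and Smarcal1 were lost, and 1490 genes were lower and 1385 higher in all.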
